A study of Mus musculus with 23 samples.

Results

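The 39 genes described here are members of the hypoxia and glycolysis program and were taken from a list of names, out of 35576 genes measured. They are 15 enzymes of glycolysis and 24 other genes tied to the hypoxia-inducible factors (HIF). The 24 are 6 transporters and kinases that set glucose flux, 4 HIF subunits and prolyl hydroxylases, 2 carbonic anhydrases, 3 proteins of mitochondria and 9 further HIF targets. All 39 were found in the files, and all 39 passed the filter on low values in each comparison between the lines.

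Glycolysis splits glucose into pyruvate, and lactate dehydrogenase turns pyruvate into lactate. In cells with oxygen, prolyl hydroxylases mark the HIF alpha subunits for destruction, and at low oxygen the subunits accumulate, pair with ARNT and bind DNA at a short core sequence near their targets. Those targets include glucose and lactate transporters, most glycolytic enzymes, pH-regulating carbonic anhydrases and mitophagy receptors. HIF alpha is controlled largely at the protein level, so that its mRNA does not report its activity. Gliomas are known for high glycolysis and for necrotic, hypoxic areas.

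RNA was sequenced from ex vivo tumors of CT2A and GL261, carcinogen-induced murine glioma lines, both carrying firefly luciferase and grown in the striatum of female albino C57BL/6 mice with an intact immune system. Bulk tumors of Cohort A comprised 4 CT2A-luc and 4 GL261-luc2 libraries. Per the study's methods, fewer CT2A-luc than GL261-luc2 cells were implanted, while the sublines of Cohort B were implanted at the same number. In bulk tumors the line and the number of cells implanted cannot be told apart. In Cohort B, which used sublines of both lines, tumor cells were selected with beads from tumors of adherent cultures (3 CT2A and 4 GL261 libraries) and of neurosphere cultures (5 CT2A and 3 GL261 libraries). The 5 CT2A neurosphere libraries carry GL261 in their titles and CT2A in their cell line label and description, and were taken as CT2A. Over 13789 genes their log2 expression correlated more with sorted CT2A cells (Pearson r 0.947 to 0.983) than with sorted GL261 cells (0.766 to 0.776), a description across genes. The labels do not state that each library came from its own mouse. The study's captions give 4 mice for each bulk group, and 3 CT2A and 5 GL261 mice for the sorted cells. Sorted GL261 cells had 4 libraries here, so that libraries and mice could not be matched there. The p-values measure the spread between these libraries.

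Depth was 34622622 to 42608400 estimated reads in bulk GL261-luc2 libraries and 7395846 to 15263587 in all others. Bulk libraries hold brain and immune cells beside tumor cells, and in them fewer cells of a type and less RNA per cell cannot be told apart. No neuronal, macrophage or endothelial marker was at 0 over a whole group. The summed level of 9 neuronal markers ran from 626 to 2803 CPM (counts scaled to library size) in bulk CT2A and from 425 to 3389 CPM in bulk GL261. It was 180 to 236 CPM in sorted CT2A and 455 to 574 CPM in sorted GL261. Neurosphere-derived libraries had 158 to 220 CPM in CT2A and 261 to 314 CPM in GL261. Macrophage and microglia markers (13 genes) summed to 5022 to 7942 CPM in neurosphere-derived GL261 libraries, against 263 to 2745 CPM in all other sorted libraries. Bulk tumors had 771 to 1296 CPM in CT2A and 781 to 1163 CPM in GL261. Between sorted cells of adherent cultures and bulk tumors, 1 of the 13 was higher in sorted cells and 0 lower in each line. The selected cells were thus not free of macrophages, and their markers were not lower than in bulk tumors. The part of other cells in the results below was not tested except where a value is given.

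The promoters of 35 of the 39 members were matched in RefSeq (GRCm38.p6), each 300 bases long with 250 before the start site. The core of the HIF binding site was searched as ACGTG and GCGTG on both strands (CACGT and CACGC on the strand printed), where a CACGTG counts as 1 match on each strand. At least 1 ACGTG lay in a promoter of 23 of the 35 members (65.7%), against 21.8% of all 27025 genes with a promoter. Either core lay in 30 of the 35 (85.7%) and in 46.7% of all genes. ACGTG was held by 9 of the 15 enzymes and by 14 of the 20 other members matched. A match is a description of letters and not a measured binding site. The promoters below belong first to members called between the lines in the same direction in all 3 experiments (Slc16a3, Slc2a1, Vldlr, Pgam1, Mxi1). The others belong to Adm, which had the lowest fold change in both sorted experiments, and to Ankrd37, which had the highest in bulk and in neurosphere-derived tumors. Ldha, which did not pass the test, is printed as well. Vldlr, Mxi1 and Ldha had a further promoter each that is not printed. Core matches are in capitals.
Slc16a3, chr11:120948817-120949116, plus strand: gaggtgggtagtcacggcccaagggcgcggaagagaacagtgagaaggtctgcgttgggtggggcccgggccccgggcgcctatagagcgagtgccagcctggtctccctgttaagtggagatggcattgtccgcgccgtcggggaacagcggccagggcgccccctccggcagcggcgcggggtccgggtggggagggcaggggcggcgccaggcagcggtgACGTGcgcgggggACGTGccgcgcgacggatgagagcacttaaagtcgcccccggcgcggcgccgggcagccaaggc
Slc2a1, chr4:119108495-119108794, plus strand: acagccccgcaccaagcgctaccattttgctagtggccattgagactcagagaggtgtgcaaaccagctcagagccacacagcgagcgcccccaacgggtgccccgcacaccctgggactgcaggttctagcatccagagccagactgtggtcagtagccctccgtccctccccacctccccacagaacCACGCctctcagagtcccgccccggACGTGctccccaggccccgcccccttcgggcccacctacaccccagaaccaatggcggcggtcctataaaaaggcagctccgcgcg
Vldlr, chr19:27216234-27216533, plus strand: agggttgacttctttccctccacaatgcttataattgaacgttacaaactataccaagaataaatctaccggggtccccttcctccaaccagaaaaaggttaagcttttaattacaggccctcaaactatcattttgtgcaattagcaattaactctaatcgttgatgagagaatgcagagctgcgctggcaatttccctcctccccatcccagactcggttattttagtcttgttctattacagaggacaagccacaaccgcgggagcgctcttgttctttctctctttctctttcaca
Adm, chr7:110627407-110627706, plus strand: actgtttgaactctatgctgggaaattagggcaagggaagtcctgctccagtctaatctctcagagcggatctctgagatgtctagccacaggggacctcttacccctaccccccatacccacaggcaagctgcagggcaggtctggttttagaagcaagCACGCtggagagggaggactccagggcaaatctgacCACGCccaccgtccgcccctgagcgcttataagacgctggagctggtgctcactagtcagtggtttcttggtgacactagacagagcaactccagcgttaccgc
Pgam1, chr19:41911621-41911920, plus strand: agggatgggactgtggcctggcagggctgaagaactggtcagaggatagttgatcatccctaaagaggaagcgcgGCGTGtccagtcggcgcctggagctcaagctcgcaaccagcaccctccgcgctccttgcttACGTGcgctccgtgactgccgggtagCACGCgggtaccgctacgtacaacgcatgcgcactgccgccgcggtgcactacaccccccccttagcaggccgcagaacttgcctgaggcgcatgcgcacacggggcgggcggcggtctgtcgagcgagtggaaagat
Mxi1 upstream start, chr19:53310256-53310555, plus strand: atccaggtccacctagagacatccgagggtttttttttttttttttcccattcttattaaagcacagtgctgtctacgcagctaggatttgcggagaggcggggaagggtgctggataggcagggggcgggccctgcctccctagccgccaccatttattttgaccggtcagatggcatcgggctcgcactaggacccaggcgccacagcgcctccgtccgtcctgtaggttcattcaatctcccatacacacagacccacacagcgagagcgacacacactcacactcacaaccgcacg
Mxi1 downstream start, chr19:53329163-53329462, plus strand: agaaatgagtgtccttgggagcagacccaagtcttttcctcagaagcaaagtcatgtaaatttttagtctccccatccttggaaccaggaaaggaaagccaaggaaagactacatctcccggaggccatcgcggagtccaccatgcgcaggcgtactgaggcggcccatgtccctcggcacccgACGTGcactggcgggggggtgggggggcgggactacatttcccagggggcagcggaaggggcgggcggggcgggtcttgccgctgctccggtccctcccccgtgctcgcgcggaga
Ankrd37, chr8:45999801-46000100, minus strand: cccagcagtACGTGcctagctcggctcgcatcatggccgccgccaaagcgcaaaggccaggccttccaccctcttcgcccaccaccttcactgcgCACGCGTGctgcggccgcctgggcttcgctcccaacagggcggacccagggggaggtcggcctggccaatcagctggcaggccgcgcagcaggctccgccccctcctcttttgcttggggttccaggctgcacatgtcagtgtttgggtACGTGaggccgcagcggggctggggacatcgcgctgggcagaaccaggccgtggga
Ldha, chr7:46845554-46845853, plus strand: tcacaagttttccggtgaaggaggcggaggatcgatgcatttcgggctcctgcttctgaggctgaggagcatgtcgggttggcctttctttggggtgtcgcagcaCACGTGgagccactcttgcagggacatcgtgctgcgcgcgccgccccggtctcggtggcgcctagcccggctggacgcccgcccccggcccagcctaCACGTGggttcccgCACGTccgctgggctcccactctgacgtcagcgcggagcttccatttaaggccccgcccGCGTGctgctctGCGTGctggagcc

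Slc16a3 held 2 ACGTG, Slc2a1 held 1 of each core, Adm held 2 GCGTG and Vldlr held neither. Pgam1 and Ankrd37, with higher levels in bulk CT2A tumors, held 1 and 2 ACGTG and 2 GCGTG each. The Ldha promoter shown held 5 ACGTG and 2 GCGTG, the most of the promoters printed, and its other promoter held 0 and 2.

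The first question was whether the glycolytic enzymes and the other members differed between the lines. In size, enzymes differed about as much as genes at large, and in selected tumor cells all enzymes called but Pgam1 were lower in CT2A. Several transporters and HIF targets were much lower in CT2A in selected tumor cells. In bulk tumors a few of these were lower in CT2A too, but more members were called higher than lower. In bulk tumors 12 of 39 members passed the test, 9 higher and 3 lower in CT2A than in GL261 (23.4% of all 16434 genes tested were called). In sorted cells 23 of 39 passed, 5 higher and 18 lower (50.8% of 13789 genes were called, and 26.8% called lower). In neurosphere-derived tumors 20 of 39 passed, 3 higher and 17 lower (59.6% of 13733 genes were called, and 29.6% called lower). All 13 macrophage markers were lower in neurosphere-derived CT2A as well. In sorted CT2A 6 of 10 endothelial and 4 of 8 oligodendrocyte markers were lower and 0 higher, and in neurosphere-derived CT2A 8 and 5 were lower and 0 higher. The part of these cells in the calls was not tested. In both sorted experiments the share of members called was near the background, while 18 and 17 of the calls were toward lower levels in CT2A. The tests were quasi-likelihood tests of edgeR, adjusted over all genes by Benjamini-Hochberg, and log2 fold changes are CT2A over GL261.

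The median log2 fold change of the 15 enzymes was 0.14 in bulk tumors, -0.65 in sorted cells and -0.49 in neurosphere-derived tumors, against -0.05, -0.01 and 0.03 over all genes tested. For the 24 other members the medians were 0.32, -0.998 and -0.62. Enzymes ranged from -0.27 to 0.96 in bulk tumors, from -1.90 to 0.81 in sorted cells and from -2.54 to 0.61 in neurosphere-derived tumors. The other members ranged more widely, from -1.78 to 2.02, from -6.93 to 2.13 and from -6.30 to 1.499. Irrespective of direction, the median fold change of enzymes was 0.27, 0.81 and 0.58 on the log2 scale and that of other members 0.68, 1.42 and 1.02, where all genes had 0.38, 0.66 and 0.70.

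**Figure D1:**
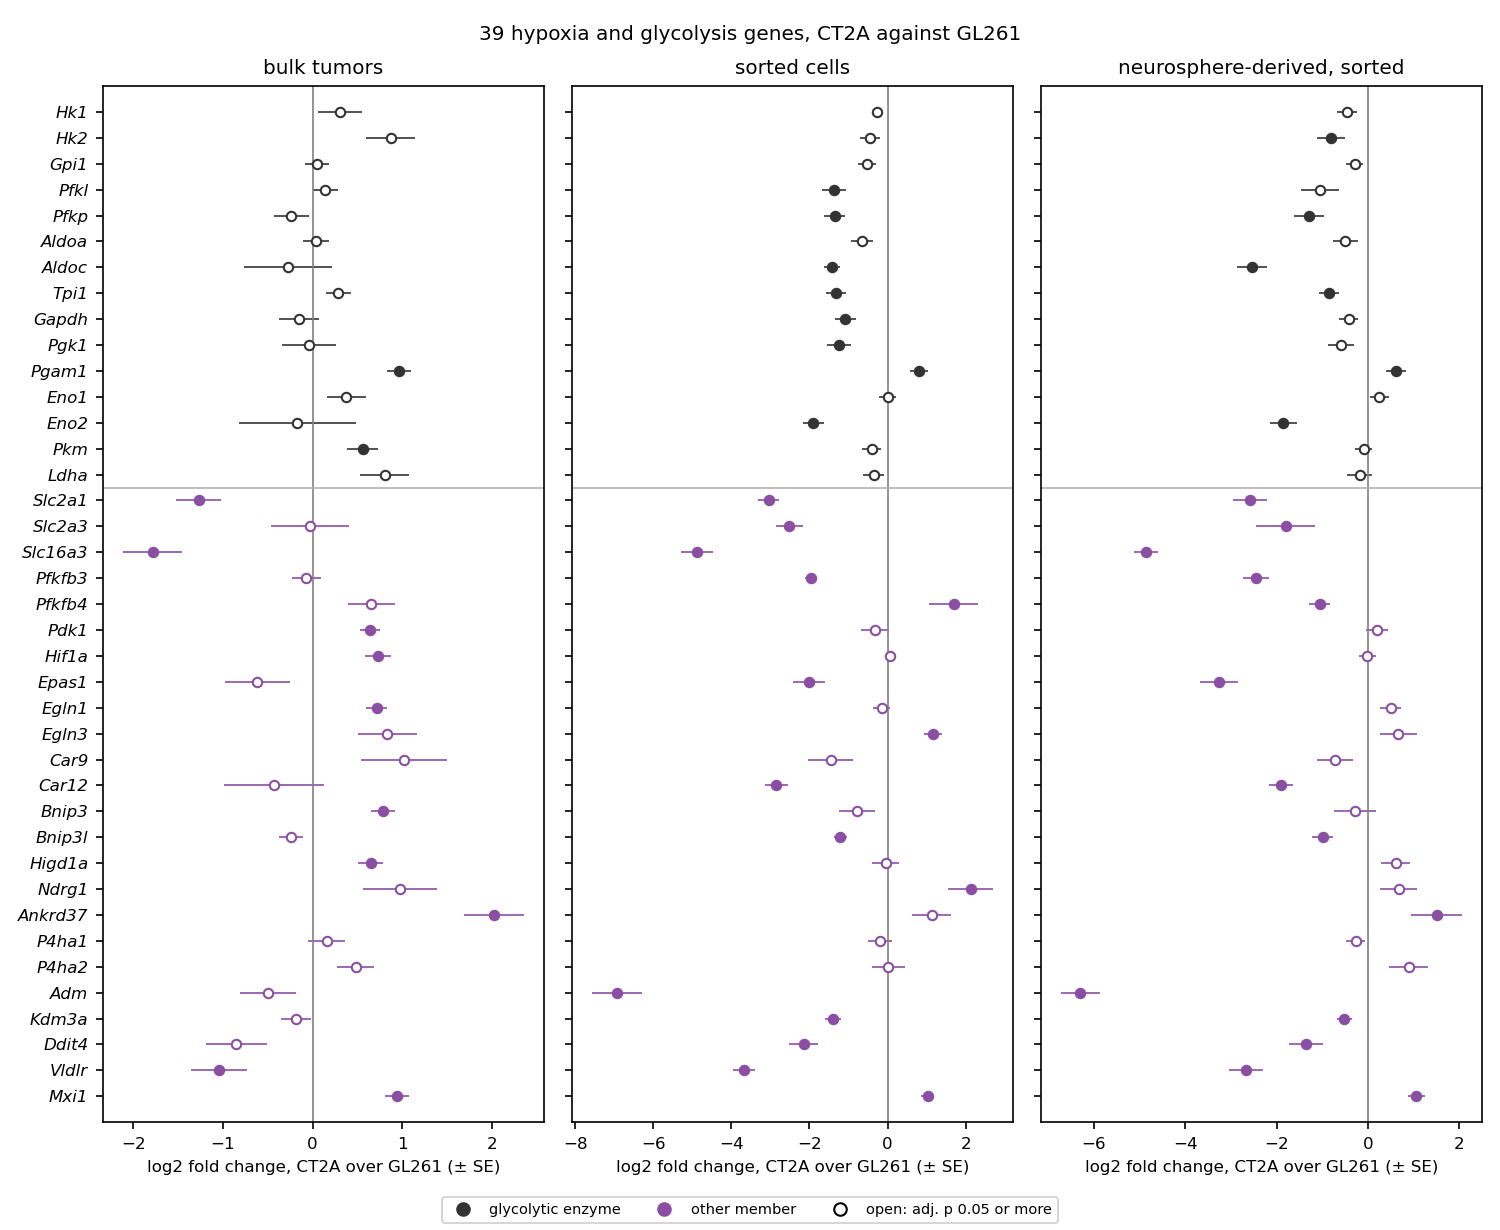
Log2 fold changes (x axis, CT2A over GL261, with SE) of the 39 members (rows) in bulk tumors, sorted cells and neurosphere-derived tumors; black points are the 15 enzymes, purple points the 24 other members, and filled points passed the adjusted threshold of 0.05. The enzymes stay between -2.54 and 0.96, whereas Slc16a3 and Adm reach -4.88 and -6.93 in sorted cells. The x axes differ between panels.

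Among the enzymes, Gapdh, which oxidizes glyceraldehyde 3-phosphate, had the highest level per transcript length in all 6 groups. On the TPM scale, which divides by transcript length and depth, it averaged 2502 ± 529.6 (SD, n = 3) in sorted CT2A and 5026 ± 898 (SD, n = 4) in sorted GL261 cells. Levels below are CPM normalized by the trimmed mean of M-values (TMM) over all 23 libraries, which compare 1 gene between libraries. Fold changes were fitted with normalization within each comparison, so that they can differ somewhat from the ratios of these CPM. In sorted cells Gapdh stood at 1526, 1296 and 915 CPM in CT2A, against 3805, 2185, 2075 and 2561 CPM in GL261. Neurosphere-derived tumors held Gapdh at 2758, 1685, 1976, 1544 and 2121 CPM in CT2A and 3309.6, 2663 and 2125 CPM in GL261. The groups did not overlap in sorted cells, where Gapdh was lower in CT2A (log2 fold change -1.08 ± 0.26 SE, adjusted p = 0.00865), and overlapped in neurosphere-derived tumors (log2 fold change -0.43 ± 0.21 SE, adjusted p = 0.101). The neurosphere call was gained without CT2A replicate 57 (adjusted p = 0.0301). Bulk tumors had Gapdh at 1867, 1967, 2007 and 1874 CPM in CT2A and 2693, 1651, 1927 and 1936 CPM in GL261. Bulk groups overlapped and did not differ past the threshold (log2 fold change -0.16 ± 0.22 SE, adjusted p = 0.704).

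Upper and middle steps of the pathway leaned the same way in sorted cells. Pfkl and Pfkp, subunits of the committing enzyme phosphofructokinase, fell by 1.37 and 1.35 on the log2 scale in CT2A, and Aldoc, an aldolase typical of astrocytes, by 1.43. Genes of chromosome 10, which holds Pfkl, had a median log2 fold change of -0.51, and those of chromosome 13, which holds Pfkp, of 0.33. Triose phosphate isomerase Tpi1 fell by 1.31, and Pgk1, the first ATP-yielding enzyme, by 1.25. Eno2, the neuronal enolase, fell by 1.90. Of the 9 neuronal markers, 3 were lower and 1 higher in sorted CT2A, and their part in Eno2 was not tested. Pgk1 and Pfkl were not past the threshold in neurosphere-derived tumors, where Pfkp (-1.29), Aldoc (-2.54), Tpi1 (-0.86), Eno2 (-1.86) and Hk2 (-0.81) were lower in CT2A. The Hk2 call (adjusted p = 0.0456) was lost when any of 6 libraries was left out, all but CT2A replicates 57 and 59, with adjusted p up to 0.170. The hexokinase Hk1, the isomerase Gpi1, the aldolase Aldoa, the enolase Eno1 and Ldha passed in none of the 3 experiments.

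Pgam1, phosphoglycerate mutase, was alone among the 15 enzymes in being called higher in CT2A in all 3 experiments (chromosome 19, 41911923 to 41918660, plus strand). Bulk tumors had Pgam1 at 615, 587, 631 and 593 CPM in CT2A and 247, 356, 289 and 322 CPM in GL261. In sorted cells Pgam1 stood at 837, 631 and 403 CPM in CT2A, against 346, 359, 318 and 414 CPM in GL261. Neurosphere-derived tumors held Pgam1 at 1063, 670.3, 663, 599 and 920.1 CPM in CT2A and 639, 488 and 411 CPM in GL261. Every bulk CT2A library lay above every bulk GL261 library, whereas 1 CT2A library, replicate 71, lay among the sorted GL261 cells and the neurosphere groups overlapped. The log2 fold changes were 0.96 ± 0.13 (SE, adjusted p = 0.00191), 0.81 ± 0.23 (adjusted p = 0.0186) and 0.61 ± 0.22 (adjusted p = 0.0363). The sorted call was lost without CT2A replicate 69 or 70 (adjusted p 0.0579 to 0.0778), and the neurosphere call without GL261 replicate 90 or 91 or CT2A replicate 57 or 61 (adjusted p 0.0684 to 0.148). All genes of chromosome 19 had a median log2 fold change of 0.28, 0.62 and 0.61 in these comparisons. Reads of pseudogenes and retrocopies named after Pgam1, added to it as an alternative, changed none of these calls.

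Ldha, the subunit of lactate dehydrogenase that favors lactate, showed a difference in no experiment past the threshold. Bulk tumors had Ldha at 756, 805, 733 and 669 CPM in CT2A and 576, 267, 393 and 379.9 CPM in GL261. In sorted cells Ldha stood at 875, 639 and 358 CPM in CT2A, against 848, 778, 721 and 871 CPM in GL261. Neurosphere-derived tumors held Ldha at 1321, 708, 613, 583 and 1065 CPM in CT2A and 1177, 966 and 769 CPM in GL261. The CT2A libraries lay above all GL261 libraries in bulk tumors (log2 fold change 0.80 ± 0.27 SE, adjusted p = 0.0664), where the call was gained with DESeq2 (adjusted p = 0.0146), with RSEM counts (0.0281), with 6 groups in 1 fit (0.0165) and without GL261 replicate 405 (0.00846). In sorted cells the CT2A libraries spread from 358 to 875 CPM, a range that holds all 4 GL261 libraries (log2 fold change -0.36 ± 0.27 SE, adjusted p = 0.301). In neurosphere-derived tumors the groups overlapped as well (log2 fold change -0.18 ± 0.28 SE, adjusted p = 0.589).

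In sorted CT2A cells and in both neurosphere-derived groups, 1 library held the highest value of 13 or 14 of the 15 enzymes. In sorted CT2A cells 14 of the 15 enzymes were highest in replicate 69 and 14 were lowest in replicate 71, where 37.5% of all 13789 genes were highest in the first and 34.3% lowest in the second. Summed over the 15 enzymes, replicates 69, 70 and 71 had 10436, 9063 and 6019 TPM. The 24 other members followed the same order, with 18 highest in replicate 69 and 18 lowest in replicate 71, as did 17 and 18 of 22 further hypoxia targets outside the list. Neurosphere-derived GL261 replicate 89 held the highest value of 14 enzymes and replicate 91 the lowest of 13 (41.2% and 38.7% of all genes). Neurosphere-derived CT2A replicate 57 held the highest value of 13 enzymes and of 17 other members (17.8% of all genes). Sorted GL261 replicate 84 held the highest value of 8 enzymes and replicate 83 the lowest of 10 (24.9% and 22.7% of all genes). The macrophage sum was 796, 821 and 1506 CPM in sorted CT2A replicates 69, 70 and 71, and 7942, 5514 and 5022 CPM in neurosphere-derived GL261 replicates 89, 90 and 91. The part of these cells in the order was not tested. No bulk library held the highest value of more than 7 enzymes, and GL261 replicate 412 held the highest value of 7 enzymes and the lowest of 7, and CT2A replicate 40 the highest of 4 and the lowest of 6.

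The spread of the enzymes between libraries differed by group. The median coefficient of variation of the enzymes was 31.1% in sorted CT2A cells and 33.8% in neurosphere-derived CT2A, where all genes had 11.2% and 20.7%. In bulk tumors it was 7.62% in CT2A and 19.9% in GL261, where all genes had 17.8% and 25.4%. Summed enzyme levels were 8506 ± 2261 (SD, n = 3) TPM in sorted CT2A against 13109 ± 1336 (n = 4) TPM in sorted GL261 cells. Neurosphere-derived tumors had 10963 ± 2030 (n = 5) TPM in CT2A and 13901 ± 2089 (n = 3) TPM in GL261. Bulk tumors had the other order, with 11341 ± 403 (n = 4) TPM in CT2A and 9371 ± 574 (n = 4) TPM in GL261. These sums are descriptions without a test.

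**Figure D2:**
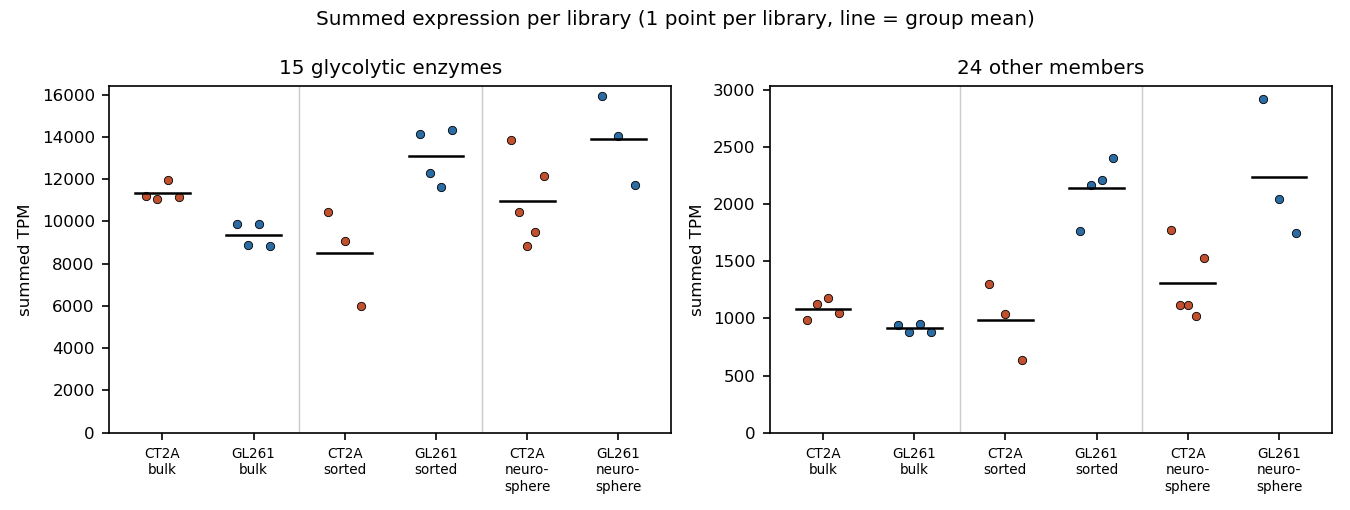
Summed TPM (y axis) of the 15 glycolytic enzymes (left) and of the 24 other members (right) in each library of the 6 groups; points are libraries and lines group means. The 3 sorted CT2A libraries spread from 6019 to 10436 TPM for the enzymes, below the 4 sorted GL261 libraries at 11650 to 14335 TPM.

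Pkm, the last kinase of glycolysis, carries a pair of mutually exclusive exons of equal length, 167 bases each. The upstream exon gives the M1 form, typical of muscle and neurons, and the downstream exon the M2 form, typical of proliferating cells. The exons are shown as they distinguish the isoforms to which reads were assigned, from GENCODE transcripts on chromosome 9 of GRCm38, plus strand, with positions at which they differ in capitals. The pair shared 103 of 167 bases (61.7%).
Pkm M1 exon, chr9:59675029-59675195: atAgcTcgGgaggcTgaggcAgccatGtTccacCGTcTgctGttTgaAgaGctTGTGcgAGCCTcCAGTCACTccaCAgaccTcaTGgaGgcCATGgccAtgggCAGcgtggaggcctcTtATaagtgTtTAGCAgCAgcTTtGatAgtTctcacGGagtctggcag
Pkm M2 exon, chr9:59675568-59675734: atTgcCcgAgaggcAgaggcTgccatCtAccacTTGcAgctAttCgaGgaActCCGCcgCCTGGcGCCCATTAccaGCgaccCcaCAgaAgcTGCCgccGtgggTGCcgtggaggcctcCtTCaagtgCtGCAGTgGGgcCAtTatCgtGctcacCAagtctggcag

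By reads M2 was the main form in every library (by TPM it held 48.3% in bulk GL261 replicate 412), and in sorted cells each CT2A library had a lower share of it than each GL261 library. Of reads assigned to M1 or M2, M2 held 78.6%, 76.3% and 79.4% in sorted CT2A cells, against 87.7%, 88.7%, 87.0% and 85.2% in sorted GL261 cells. Neurosphere-derived CT2A had 78.2%, 81.1%, 87.8%, 84.1% and 80.4%, against 88.8%, 87.2% and 87.2% in GL261. The sorted groups did not overlap, with a difference of -9.07 percentage points (two-sided exact permutation test, p = 0.0286, the smallest possible, adjusted p = 0.0857 over 3 comparisons). The neurosphere groups overlapped, with a difference of -5.45 points (exact permutation p = 0.0893, adjusted p = 0.134, smallest possible p 0.0179). Neither held after adjustment. With 1 sorted library left out the design cannot give a p under 0.05, so that those alternatives could not pass.

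In bulk tumors the M2 share was 76.1%, 77.1%, 67.0% and 66.8% in CT2A, against 94.1%, 53.3%, 73.1% and 81.7% in GL261. The groups overlapped (difference -3.82 points, exact permutation p = 0.657, adjusted p = 0.657). GL261 replicate 405 had both the highest M2 share and the lowest sum of neuronal markers, 425 CPM, and replicate 412 the lowest share and the highest sum, 3389 CPM. Without replicate 405 the difference turned to 2.36 points. Reads are assigned to isoforms by Salmon from short fragments, so that these shares are estimates.

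**Figure D3:**
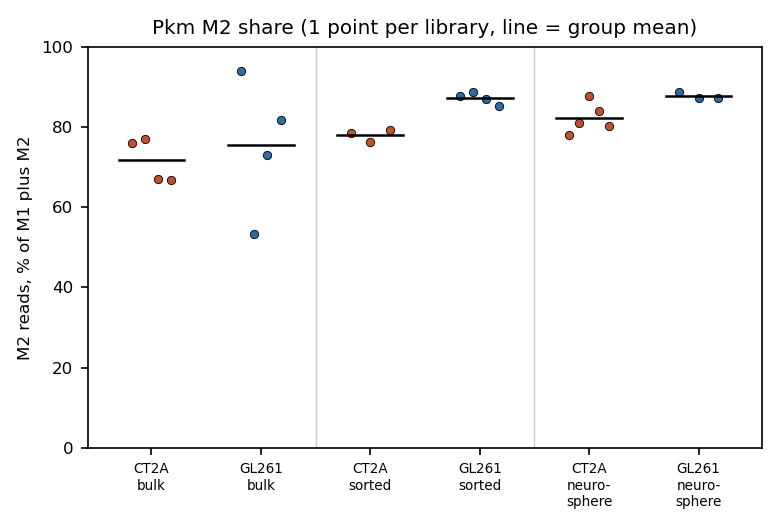
Share of M2 in the Pkm reads assigned to M1 or M2 (y axis, percent) in each library of the 6 groups; points are libraries and lines group means. Sorted CT2A libraries lie at 76.3% to 79.4% and sorted GL261 libraries at 85.2% to 88.7%, whereas bulk GL261 libraries spread from 53.3% to 94.1%.

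The whole gene Pkm was higher in bulk CT2A tumors. Bulk tumors had Pkm at 1891, 1974, 1929.5 and 1827 CPM in CT2A and 1433, 1153, 1206 and 1187 CPM in GL261. The groups did not overlap (log2 fold change 0.56 ± 0.17 SE, adjusted p = 0.0481), but the call was lost when any library but GL261 replicate 405 was left out (adjusted p 0.0591 to 0.137). In sorted cells Pkm stood at 1901, 1659 and 1174 CPM in CT2A, against 2942, 1774, 1695 and 2015 CPM in GL261. Neurosphere-derived tumors held Pkm at 2789.8, 1905, 2065, 1827 and 2629 CPM in CT2A and 2827, 2440.4 and 1889 CPM in GL261. Both pairs overlapped and neither passed (log2 fold change -0.40 ± 0.24 SE, adjusted p = 0.196 and log2 fold change -0.09 ± 0.19 SE, adjusted p = 0.692).

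Of the 6 genes that set glucose flux, 2 were lower in CT2A in all 3 experiments. Slc16a3, the monocarboxylate transporter MCT4 that exports lactate (chromosome 11, 120948480 to 120960868, plus strand), differed most of the 6. Bulk tumors had Slc16a3 at 11.98, 17.98, 19.6 and 13.3 CPM in CT2A and 67.7, 28.8, 45.8 and 62.9 CPM in GL261. In sorted cells Slc16a3 stood at 6.39, 6.21 and 5.32 CPM in CT2A, against 79.5, 218, 187 and 221 CPM in GL261. Neurosphere-derived tumors held Slc16a3 at 10.4, 3.61, 7.97, 7.08 and 5.56 CPM in CT2A and 217, 196 and 191 CPM in GL261. Every CT2A library lay below every GL261 library of its experiment. The difference was 3.44-fold in bulk tumors (log2 fold change -1.78 ± 0.33 SE, adjusted p = 0.00652), 29.4-fold in sorted cells (log2 fold change -4.88 ± 0.41 SE, adjusted p = 3.53e-05) and 29.0-fold in neurosphere-derived tumors (log2 fold change -4.86 ± 0.26 SE, adjusted p = 4.05e-07).

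Slc2a1, the glucose transporter GLUT1 (chromosome 4, 119108711 to 119137983, plus strand), was the second. Bulk tumors had Slc2a1 at 77.4, 104, 109 and 91.97 CPM in CT2A and 297, 156, 224 and 200.1 CPM in GL261. In sorted cells Slc2a1 stood at 104, 78.6 and 55.6 CPM in CT2A, against 505, 663, 807 and 648 CPM in GL261. Neurosphere-derived tumors held Slc2a1 at 207, 100.5, 76.2, 104 and 151 CPM in CT2A and 1209, 646 and 433 CPM in GL261. The groups did not overlap in any experiment, and CT2A was lower by 2.41-fold in bulk tumors (log2 fold change -1.27 ± 0.25 SE, adjusted p = 0.00824), 8.24-fold in sorted cells (log2 fold change -3.04 ± 0.27 SE, adjusted p = 4.54e-05) and 5.99-fold in neurosphere-derived tumors (log2 fold change -2.58 ± 0.37 SE, adjusted p = 0.000274). The calls of Slc16a3 and Slc2a1 held under each alternative run.

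Slc2a3, the high-affinity glucose transporter GLUT3, and Pfkfb3, which makes the activator of phosphofructokinase, were lower in CT2A in both sorted experiments and did not differ past the threshold in bulk tumors (-0.03 and -0.07). Slc2a3 had log2 fold changes of -2.52 in sorted cells and -1.81 in neurosphere-derived tumors, and Pfkfb3 of -1.97 and -2.45. The neurosphere call of Slc2a3 (adjusted p = 0.0372) was lost when any of 6 libraries was left out, all but GL261 replicate 91 and CT2A replicate 57 (adjusted p 0.0535 to 0.150). Pdk1, the kinase that closes the entry of pyruvate into mitochondria, was higher in bulk CT2A (0.64 ± 0.11 SE, adjusted p = 0.00534), and its values of -0.33 and 0.19 in the other experiments did not pass.

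Pfkfb4, a paralog of Pfkfb3, passed in opposite directions. In sorted cells Pfkfb4 stood at 8.397, 8.28 and 10.3 CPM in CT2A, against 0.456, 4.54, 4.34 and 1.78 CPM in GL261. Neurosphere-derived tumors held Pfkfb4 at 7.27, 6.77, 10.3, 10.02 and 6.29 CPM in CT2A and 20.4, 14.9 and 15.6 CPM in GL261. The CT2A libraries lay above all GL261 libraries in sorted cells (log2 fold change 1.69 ± 0.62 SE, adjusted p = 0.0485) and below all of them in neurosphere-derived tumors (log2 fold change -1.06 ± 0.23 SE, adjusted p = 0.00252). The sorted call was lost with RSEM counts (adjusted p = 0.0522) and without GL261 replicate 84 or any of CT2A replicates 69, 70 and 71 (adjusted p 0.0997 to 0.129). Bulk tumors had Pfkfb4 at 8.47, 10.7, 13.1 and 14.7 CPM in CT2A and 4.499, 10.8, 6.96 and 6.999 CPM in GL261. Bulk groups overlapped (log2 fold change 0.65 ± 0.26 SE, adjusted p = 0.112), with the call gained without GL261 replicate 412 (adjusted p = 0.0354).

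**Figure D4:**
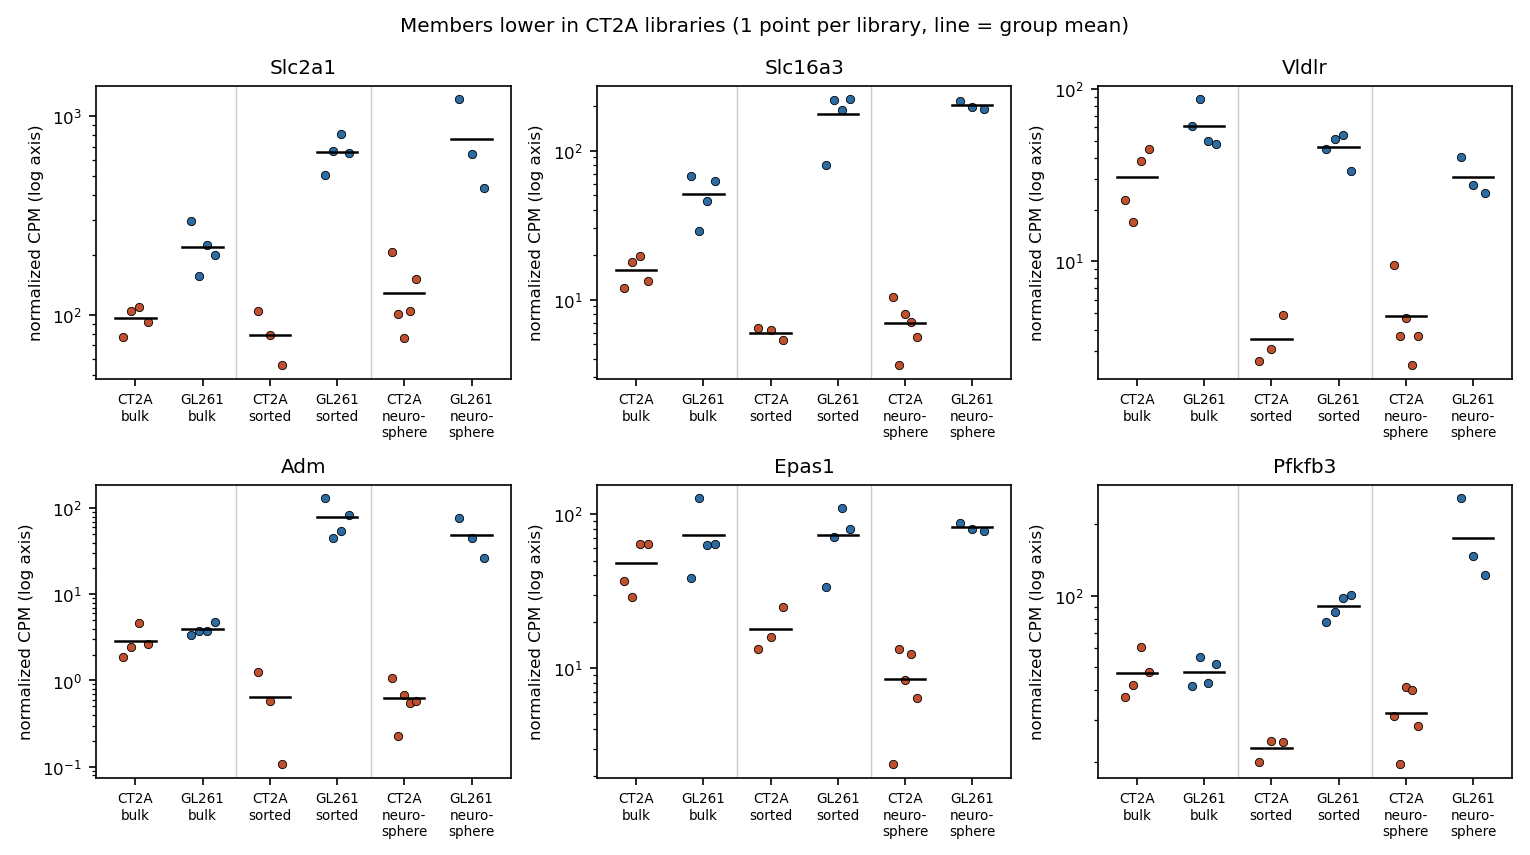
Normalized CPM (y axis, log scale) of Slc2a1, Slc16a3, Vldlr, Adm, Epas1 and Pfkfb3 in each library of the 6 groups; points are libraries and lines group means. In the sorted and neurosphere panels the CT2A libraries lie below the GL261 libraries for each of the 6 genes, and in bulk tumors only Slc2a1, Slc16a3 and Vldlr keep the groups apart.

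The HIF alpha subunits differed from each other. Hif1a, the broadly expressed subunit, did not differ past the threshold in selected cells. In sorted cells Hif1a stood at 247, 278 and 269.9 CPM in CT2A, against 252, 247, 258 and 259.6 CPM in GL261. Neurosphere-derived tumors held Hif1a at 241, 257, 371, 225 and 217 CPM in CT2A and 267, 235 and 292 CPM in GL261. Its groups overlapped in sorted cells (log2 fold change 0.07 ± 0.11 SE, adjusted p = 0.634) and in neurosphere-derived tumors (log2 fold change -0.02 ± 0.19 SE, adjusted p = 0.941). Bulk tumors had Hif1a at 174, 215, 174 and 164 CPM in CT2A and 105, 109.5, 99.6 and 111 CPM in GL261. In bulk tumors every CT2A library was above every GL261 library (log2 fold change 0.73 ± 0.14 SE, adjusted p = 0.00756).

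Epas1, which encodes HIF2 alpha and is abundant in endothelial cells and astrocytes, was lower in the selected CT2A libraries. In sorted cells Epas1 stood at 13.4, 15.9 and 24.98 CPM in CT2A, against 33.9, 70.7, 109 and 80.1 CPM in GL261. Neurosphere-derived tumors held Epas1 at 2.37, 13.2, 8.34, 12.3 and 6.44 CPM in CT2A and 88.3, 80.4 and 77.5 CPM in GL261. The groups did not overlap, at 4.04-fold lower in sorted CT2A (log2 fold change -2.02 ± 0.41 SE, adjusted p = 0.00362) and 9.54-fold lower in neurosphere-derived CT2A (log2 fold change -3.25 ± 0.42 SE, adjusted p = 0.00013). The sum of 10 endothelial markers was 99.3 to 158 CPM in sorted CT2A and 128 to 586 CPM in sorted GL261, and 47.6 to 140 CPM in neurosphere-derived CT2A and 337 to 408 CPM in neurosphere-derived GL261. In sorted GL261 replicates 81, 82, 83 and 84 the endothelial sum was 128, 262, 586 and 321 CPM, in the same order as Epas1. Sorted CT2A libraries shared the order of Epas1 too, whereas the neurosphere-derived groups did not. The sum of 8 astrocyte markers was 381 to 549 CPM in sorted CT2A and 98.2 to 531 CPM in sorted GL261, and 84.1 to 319 CPM in neurosphere-derived CT2A and 266 to 360 CPM in neurosphere-derived GL261. The part of endothelial cells and astrocytes in Epas1 was not tested. Bulk tumors had Epas1 at 36.7, 28.8, 63.8 and 64.5 CPM in CT2A and 38.5, 127, 63.3 and 64.1 CPM in GL261. Bulk groups overlapped (log2 fold change -0.62 ± 0.36 SE, adjusted p = 0.273).

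The prolyl hydroxylases Egln1 (PHD2) and Egln3 (PHD3) are HIF targets that act back on the HIF alpha subunits. Egln1 passed in bulk tumors, where it was higher in CT2A (0.71 ± 0.12 SE, adjusted p = 0.00391). Egln3 passed in sorted cells (1.16 ± 0.23 SE, adjusted p = 0.00316), with 65.9, 53.9 and 32.0 CPM in CT2A against 21.8 to 24.3 CPM in GL261. Its values of 0.83 in bulk tumors and 0.66 in neurosphere-derived tumors did not pass.

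Of the carbonic anhydrases, which handle acid at the cell surface, Car9 is often used as a readout of hypoxia. Bulk tumors had Car9 at 14.9, 17.3, 20.6 and 18.8 CPM in CT2A and 14.5, 2.53, 8.896 and 7.303 CPM in GL261. In sorted cells Car9 stood at 56.9, 20.1 and 6.59 CPM in CT2A, against 75.7, 70.3, 67.5 and 91.6 CPM in GL261. Neurosphere-derived tumors held Car9 at 62.97, 21.4, 28.4, 17.8 and 46.1 CPM in CT2A and 74.01, 59.1 and 39.9 CPM in GL261. The groups did not overlap in bulk tumors, with CT2A higher (log2 fold change 1.01 ± 0.48 SE, adjusted p = 0.173), nor in sorted cells, with CT2A lower (log2 fold change -1.45 ± 0.58 SE, adjusted p = 0.0657), and neither difference passed. Car9 was called lower in sorted CT2A with DESeq2 (adjusted p = 0.016), with 6 groups in 1 fit (0.0327) and without CT2A replicate 69 (0.00409). It was called higher in bulk CT2A without GL261 replicate 405 (adjusted p = 0.0382). In neurosphere-derived tumors the groups overlapped (log2 fold change -0.72 ± 0.39 SE, adjusted p = 0.145), and Car9 was called lower in CT2A without replicate 57 (adjusted p = 0.0258). Car12 was lower in sorted CT2A cells (-2.85 ± 0.29 SE, adjusted p = 9.43e-05) and in neurosphere-derived CT2A (-1.90 ± 0.26 SE, adjusted p = 0.000163), with -0.43 in bulk tumors.

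Bnip3 and Bnip3l encode mitophagy receptors and Higd1a a protein of the respiratory chain. Bnip3 and Higd1a were higher in bulk CT2A tumors (0.79 and 0.65), calls that were lost with 6 groups in 1 fit (adjusted p = 0.144 and 0.086), and did not pass elsewhere. Bnip3l was lower in sorted CT2A (-1.21 ± 0.17 SE) and in neurosphere-derived CT2A (-0.99 ± 0.23 SE). Genes of its chromosome, 14, had median log2 fold changes of -0.85 and -0.81 in these comparisons.

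Among the 9 further HIF targets the lowest and highest fold changes of all members occurred. Adm, which encodes the vasodilating peptide adrenomedullin (chromosome 7, 110627661 to 110629820, plus strand), was near the detection limit in CT2A cells. In sorted cells Adm stood at 1.25, 0.575 and 0.106 CPM in CT2A, against 131, 44.96, 53.8 and 84.7 CPM in GL261. Neurosphere-derived tumors held Adm at 1.06, 0.226, 0.670, 0.552 and 0.585 CPM in CT2A and 77.5, 44.8 and 26.5 CPM in GL261. The sorted CT2A libraries held 10, 5.01 and 1 estimated reads of Adm, against 422 to 1146 in the sorted GL261 libraries. The fitted difference was -6.93 ± 0.64 on the log2 scale (SE, adjusted p = 5.71e-05) in sorted cells and -6.30 ± 0.43 (adjusted p = 1.53e-06) in neurosphere-derived tumors, and both calls held without any single library. Bulk tumors had Adm at 1.85, 2.47, 4.61 and 2.66 CPM in CT2A and 3.35, 3.79, 3.802 and 4.83 CPM in GL261. Bulk groups overlapped (log2 fold change -0.50 ± 0.31 SE, adjusted p = 0.308).

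Vldlr, a lipoprotein receptor (chromosome 19, 27216484 to 27254231, plus strand), was lower in CT2A in all 3 experiments, although the median gene of chromosome 19 was higher. Bulk tumors had Vldlr at 22.9, 17.03, 38.3 and 44.9 CPM in CT2A and 60.9, 87.5, 49.8 and 47.96 CPM in GL261. In sorted cells Vldlr stood at 2.63, 3.104 and 4.89 CPM in CT2A, against 44.7, 51.2, 54.2 and 33.7 CPM in GL261. Neurosphere-derived tumors held Vldlr at 9.55, 3.69, 4.69, 2.48 and 3.66 CPM in CT2A and 40.4, 27.7 and 24.9 CPM in GL261. No groups overlapped, and CT2A was lower by 2.07-fold in bulk tumors (log2 fold change -1.05 ± 0.31 SE, adjusted p = 0.0426), 12.8-fold in sorted cells (log2 fold change -3.68 ± 0.29 SE, adjusted p = 2.58e-05) and 6.40-fold in neurosphere-derived tumors (log2 fold change -2.68 ± 0.37 SE, adjusted p = 0.000162). The bulk call was lost with RSEM counts (adjusted p = 0.0559) and when any library but CT2A replicate 48 was left out (adjusted p 0.0604 to 0.105).

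Ddit4, an inhibitor of mTOR signaling, and Kdm3a, a histone demethylase, were lower in sorted CT2A (-2.15 and -1.395) and in neurosphere-derived CT2A (-1.35 and -0.52). Genes of chromosome 10, which holds Ddit4, had medians of -0.51 and -0.32 in these comparisons, and those of chromosome 6, which holds Kdm3a, of -0.10 and -0.02. Both neurosphere calls were lost without GL261 replicate 89 (adjusted p = 0.0559 and 0.0524). P4ha1 and P4ha2, collagen prolyl hydroxylases, passed in no experiment, with values between -0.26 and 0.89.

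Mxi1, a MAX-binding antagonist of MYC (chromosome 19, 53310518 to 53375810, plus strand), was higher in CT2A in all 3 experiments by a like amount. Bulk tumors had Mxi1 at 84.1, 88.00, 102 and 85.6 CPM in CT2A and 34.5, 55.5, 46.7 and 45.7 CPM in GL261. In sorted cells Mxi1 stood at 126, 106 and 82.5 CPM in CT2A, against 50.3, 54.9, 56.01 and 44.9 CPM in GL261. Neurosphere-derived tumors held Mxi1 at 207, 129, 169, 123 and 163 CPM in CT2A and 93.2, 67.6 and 65.9 CPM in GL261. No groups overlapped, and the fold was 1.92 in bulk tumors (log2 fold change 0.94 ± 0.13 SE, adjusted p = 0.00182), 2.05 in sorted cells (log2 fold change 1.03 ± 0.17 SE, adjusted p = 0.00123) and 2.08 in neurosphere-derived tumors (log2 fold change 1.06 ± 0.20 SE, adjusted p = 0.001). Its calls held under each alternative run, except that the bulk difference lies under a minimum absolute log2 fold change of 1. As for Pgam1, the median gene of chromosome 19 was higher in CT2A by 0.28, 0.62 and 0.61 on the log2 scale, and the part of the chromosome in the difference was not tested.

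Ankrd37, a small ankyrin-repeat protein, had the highest fold change of all members in bulk tumors and in neurosphere-derived tumors. Bulk tumors had Ankrd37 at 11.9, 16.6, 14.7 and 10.6 CPM in CT2A and 4.99, 3.01, 2.54 and 2.12 CPM in GL261. In sorted cells Ankrd37 stood at 21.8, 13.3 and 3.93 CPM in CT2A, against 4.33, 5.78, 5.23 and 8.53 CPM in GL261. Neurosphere-derived tumors held Ankrd37 at 39.6, 14.8, 7.74, 14.3 and 36.9 CPM in CT2A and 11.7, 6.21 and 5.88 CPM in GL261. Only the bulk groups were apart (log2 fold change 2.02 ± 0.34 SE, adjusted p = 0.00413), since sorted CT2A replicate 71 lay below all GL261 libraries (log2 fold change 1.13 ± 0.51 SE, adjusted p = 0.0982) and the neurosphere groups overlapped (log2 fold change 1.499 ± 0.56 SE, adjusted p = 0.0414). The sorted call was gained without replicate 71 (adjusted p = 0.0097). The neurosphere call was lost without a minimum count (adjusted p = 0.0865) and without GL261 replicate 90 or 91 or CT2A replicate 57 or 61 (0.0757 to 0.131).

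Ndrg1, a stress-responsive gene of differentiation, had the highest fold change in sorted cells. In sorted cells Ndrg1 stood at 86.6, 51.9 and 21.6 CPM in CT2A, against 3.53, 12.1, 19.5 and 13.8 CPM in GL261. Neurosphere-derived tumors held Ndrg1 at 163, 58.1, 73.4, 64.5 and 148 CPM in CT2A and 95.01, 49.7 and 45.8 CPM in GL261. Every sorted CT2A library was above every sorted GL261 library (log2 fold change 2.13 ± 0.58 SE, adjusted p = 0.0149), and the call was lost without CT2A replicate 69 (adjusted p = 0.0729). Neurosphere groups overlapped (log2 fold change 0.67 ± 0.41 SE, adjusted p = 0.186). Bulk tumors had Ndrg1 at 51.1, 81.1, 113 and 68.03 CPM in CT2A and 14.6, 72.7, 40.1 and 31.4 CPM in GL261. Bulk groups overlapped too (log2 fold change 0.97 ± 0.42 SE, adjusted p = 0.134), with the call gained without GL261 replicate 412 (adjusted p = 0.0275).

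**Figure D5:**
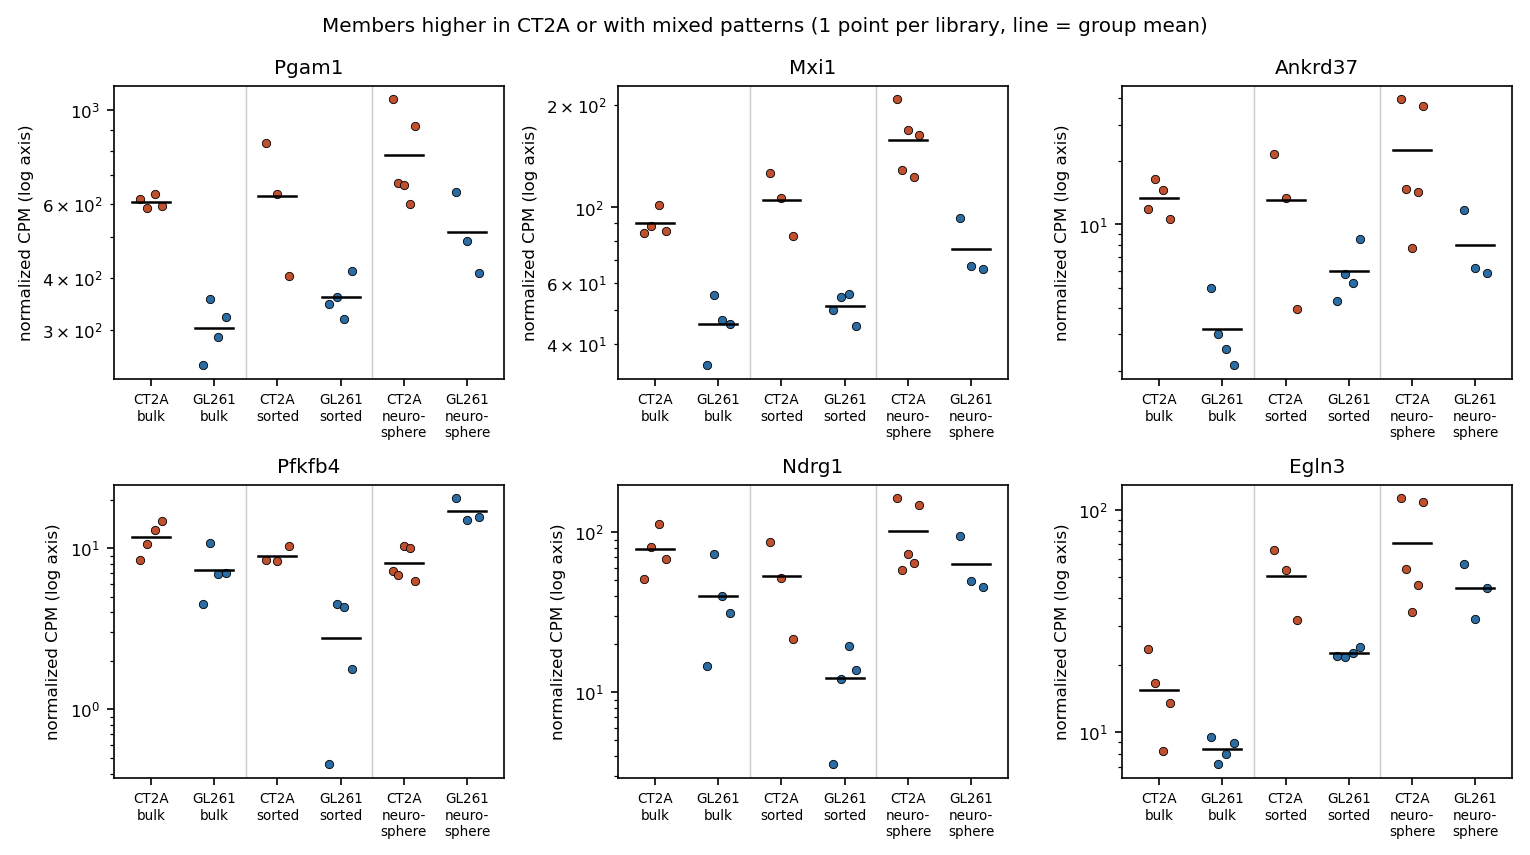
Normalized CPM (y axis, log scale) of Pgam1, Mxi1, Ankrd37, Pfkfb4, Ndrg1 and Egln3 in each library of the 6 groups; points are libraries and lines group means. Mxi1 keeps the CT2A libraries above the GL261 libraries in each experiment, and Pfkfb4 is lowest in sorted GL261 (0.456 to 4.54 CPM) and highest in neurosphere-derived GL261 (14.9 to 20.4 CPM).

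Whether the line difference itself was different in sorted cells than in bulk tumors was tested as an interaction over the 15 libraries of those groups. The number of cells implanted differed between the lines for bulk tumors and not for sorted cells, and cannot be told apart from this interaction. For 13 of the 39 members the difference moved toward lower CT2A in sorted cells and for 0 toward higher (5.8% of 15845 genes were called lower and 7.67% higher). By DESeq2 21 were lower and 0 higher, and at an unadjusted p under 0.05 edgeR gave 23 lower and 0 higher. The median interaction was -0.99 for the members and 0.12 for all genes. With DESeq2 size factors, all genes shifted by -0.12 and the split of all calls moved from 1216 higher and 919 lower to 911 higher and 1062 lower. The 13 were Adm (-6.34 ± 0.70 SE, adjusted p = 8.34e-05), Slc16a3 (-3.00 ± 0.49), Vldlr (-2.51 ± 0.46), Slc2a3, Car12, Pfkfb3, Slc2a1, Tpi1, Pfkl, Hk2, Kdm3a, Bnip3l and Hif1a. Of these, Hif1a was lost in 12 of 15 fits without 1 library, Hk2 and Car12 in 11 each, Slc2a3 in 6 and Bnip3l in 5, with adjusted p from 0.0503 to 0.12, and the other 8 in none. Leaving out 1 library gave 8 to 19 calls, with 8 without CT2A bulk replicate 47 or sorted CT2A replicate 70.

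Within each line, sorted cells were also set against bulk tumors. From the same libraries, 21 members were higher and 3 lower in sorted than in bulk GL261 (14.4% and 20.1% of 16265 genes), led by Adm (19.6-fold higher, at 45.0 to 131 CPM in sorted against 3.35 to 4.83 CPM in bulk GL261) and Car9 (9.01-fold higher, adjusted p = 0.00219). In CT2A 2 were higher and 12 lower (49.9% of 14701 genes were called, 23% higher and 26.9% lower), with Vldlr 8.64-fold and Adm 4.56-fold lower in sorted cells. The Adm call was lost without bulk replicate 47 or sorted replicate 70 (adjusted p 0.0606 to 0.0804), and without the second 9 members in all were called. Eno2 was lower in sorted cells of both lines, at 1.61 to 17.4 CPM in all selected and 39.2 to 449.8 CPM in bulk libraries, as were 7 of 9 neuronal markers in GL261 and 9 of 9 in CT2A. Hif1a was higher in sorted cells of both (1.24 in GL261 and 0.54 in CT2A). These contrasts share libraries with those between the lines, and subline, number of cells implanted, cell selection, read length and sequencer differ between bulk and sorted samples and cannot be told apart.

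Few members were called with neurosphere culture before implantation, a share near that of all genes (8.53% of 13675 genes called in GL261). In GL261 4 of 39 members were higher in neurosphere-derived than in adherent-derived sorted cells and 0 lower (7.58% of 13675 genes were higher and 0.951% lower). At an unadjusted p under 0.05 edgeR gave 7 higher and 1 lower, and DESeq2 called 7 higher and 0 lower. Ndrg1 had 95.01, 49.7 and 45.8 CPM in neurosphere-derived GL261, against 3.53, 12.1, 19.5 and 13.8 CPM in adherent-derived GL261. Pfkfb4 had 20.4, 14.9 and 15.6 CPM in neurosphere-derived GL261, against 0.456, 4.54, 4.34 and 1.78 CPM in adherent-derived GL261. The groups did not overlap for either, with log2 fold changes of 2.45 ± 0.51 (SE, adjusted p = 0.0236) for Ndrg1 and 2.67 ± 0.59 (adjusted p = 0.0301) for Pfkfb4. Pfkfb3 (1.03 ± 0.26) and Egln3 (1.05 ± 0.20) were the others. All 4 calls were lost without GL261 sorted replicate 84 or neurosphere-derived replicate 89 (adjusted p 0.0601 to 0.135), and the count ran from 0 to 7 over the libraries left out. The macrophage sum was 5022 to 7942 CPM in neurosphere-derived and 263 to 1220 CPM in adherent-derived GL261, and 12 of 13 macrophage markers were higher. Whether these cells carry the 4 genes was not tested.

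In CT2A no member passed between neurosphere-derived and adherent-derived cells (0.167% of 13142 genes were called, 0.0533% higher and 0.114% lower), with 6 members at an unadjusted p under 0.05 and 1 called by DESeq2, as lower. Adm did not pass the filter there. The median member stood at 0.45 on the log2 scale and the median gene at 0.02. With TMM over all genes with a read, the split of all calls moved from 7 higher and 15 lower to 19 higher and 25 lower. The line difference itself changed with culture for Pfkfb4 alone among the 39 members (-2.79 ± 0.63 SE, adjusted p = 0.0183, with 6.67% of 13824 genes called and 5.7% called lower), a call that was lost without sorted CT2A replicate 71 (adjusted p = 0.0595) or neurosphere-derived GL261 replicate 89 (0.0695).

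Other genes of the pathway were taken from lists, and their counts stand against 50.8% of all genes called in sorted cells, 59.6% in neurosphere-derived tumors and 23.4% in bulk tumors. Of 21 further glycolytic genes, 14 passed the filter in sorted cells, 13 in neurosphere-derived tumors and 17 in bulk tumors. In CT2A 1 was higher and 7 lower in sorted cells, 1 higher and 7 lower in neurosphere-derived tumors, and 2 higher and 2 lower in bulk tumors. Ldhb, the lactate dehydrogenase subunit that favors pyruvate, fell by 2.22 in sorted and by 2.13 in neurosphere-derived CT2A on the log2 scale. Slc16a1, the transporter MCT1, was higher in all 3 (0.82, 1.398 and 1.57), opposite to Slc16a3. Of 24 further hypoxia targets, 22, 23 and 24 passed the filter. In CT2A 3 were higher and 9 lower in sorted cells, 5 higher and 10 lower in neurosphere-derived tumors, and 6 higher and 4 lower in bulk tumors. Ero1l, an oxidase of the endoplasmic reticulum, was lower in sorted CT2A (-3.25 ± 0.39 SE) and Tmem45a was higher (4.16 ± 0.68 SE). Of 12 genes of the HIF machinery, 5 were higher and 3 lower in each sorted experiment, with Hif3a, a HIF alpha subunit that can act as an inhibitor, at -5.48 in sorted cells and Arnt2, a partner of HIF alpha abundant in neurons, at 2.99.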

How the data were processed

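Per the labels and the study's methods, the authors quantified transcripts of the mouse transcriptome (mm10, GRCm38) with Salmon, aligned reads with STAR 2.7.7a, estimated gene counts with RSEM 1.3.3 and tested with DESeq2 1.30.1. The deposited Salmon files of 23 libraries held estimated counts and TPM per transcript, with effective lengths, and RSEM files held expected counts per gene for the bulk and the adherent-derived sorted libraries. Read length was 150 bases in bulk and 37 bases in sorted libraries. Library kits are named differently in the sources, and whether counting used strand is not given in the sources used here, so that reads of a gene and of an antisense partner cannot be told apart.

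Here estimated counts were summed over 116546 transcripts to 35576 genes and rounded, with 0.0413% to 0.152% of reads on transcripts without a gene left out. Depth per library limits low genes, and p-values measure the spread between libraries, none of which agreed within sampling noise (34 replicate pairs). Genes with a mean normalized count above 10 over the libraries compared were tested with edgeR 4.0.16 (TMM, quasi-likelihood, R 4.3.3), with Benjamini-Hochberg adjustment over all genes and a threshold of 0.05. SE is the absolute log2 fold change divided by the square root of F. Alternatives were DESeq2 1.42.0, its size factors in edgeR, no minimum count, filterByExpr, a length offset, 6 groups in 1 fit, retrocopies added, RSEM counts, a minimum absolute log2 fold change of 1, each library left out and, chosen after seeing the data, TMM over all genes with reads. In simulated data with known changes, the tests called 13.3%, 37.4% and 51% of 2-fold changes in the bulk, sorted and neurosphere comparisons. Of 4-fold changes they called 67.3%, 84.7% and 86.5%. For the interaction between sorted cells and bulk tumors these shares were 6.12% and 54%. A member that did not pass can thus still differ 2-fold.

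Tables and figures were made in Python 3.11.15 with pandas 2.3.3, scipy 1.17.1 and matplotlib 3.10.9. The members and lists were chosen with earlier results of these data known. Values of every library are given for members past the threshold in the same direction in all 3 line comparisons or in opposite directions, for the highest and lowest fold change of each, and for Gapdh, Ldha, Pkm, Slc2a1, Hif1a, Epas1 and Car9; values of other members are given by ranges and counts. Reads shared by Gapdh or Pgam1 and their pseudogene copies make these counts less certain.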

Additional observations from a re-analysis of the deposited data

Results flagged for a closer look

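Of 164 groups of 4 or 5 libraries examined, 6 held a library far from the others, where chance gives about 1 in 20 groups. GL261 sorted replicate 81 was low for Hk2 (57.1 CPM, others 104 to 107) and for Eno2 (11.3 CPM, others 16.6 to 17.4), and it also had the lowest macrophage sum of its group (263 CPM). GL261 sorted replicate 84 was high for Bnip3, at 298 CPM where the others had 208 to 217. CT2A neurosphere-derived replicate 59 was high for Hif1a, with 371 CPM and 217 to 257 in the others, and held the highest macrophage sum of its group (2745 CPM). Bulk GL261 replicate 412 was high for Higd1a (44.5 CPM, others 29.3 to 30.2). Summed over the 15 enzymes, bulk CT2A replicate 47 had 11940 TPM and the others 11066 to 11205.

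By the interaction test, the line difference on the log2 scale was lower in sorted cells than in bulk tumors for Hk2 (-1.21), Pfkl (-1.40), Tpi1 (-1.49), Slc2a1 (-1.67), Slc2a3 (-2.33), Slc16a3 (-3.00), Pfkfb3 (-1.77), Hif1a (-0.54), Car12 (-2.28), Bnip3l (-0.85), Adm (-6.34), Kdm3a (-1.11) and Vldlr (-2.51). For Pfkfb4 it was lower after neurosphere than after adherent culture (-2.79).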

How the results depend on the processing

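No paired analysis was possible because the groups compared share no replicate numbers. Of members called, the count in bulk tumors was 4 with a minimum absolute log2 fold change of 1, and 10 to 14 without single libraries (12 as reported). DESeq2 called 7 members in neurosphere-derived against adherent-derived GL261, 1 in CT2A, 21 for the line difference between sorted cells and bulk tumors and 2 for that between cultures, where 6 groups in 1 fit also gave 2. Without single libraries the counts were 21 to 25 in sorted cells, 16 to 24 in neurosphere-derived tumors, 0 to 7 for culture in GL261, 0 to 0 for culture in CT2A, 19 to 25 and 9 to 18 for sorted against bulk GL261 and CT2A, 8 to 19 for the line difference between sorted cells and bulk tumors and 0 to 2 for that between cultures. The Pkm M2 difference ran from -11.2 to 2.36 points in bulk tumors, where it turned without GL261 replicate 405, and from -9.71 to -8.16 points in sorted cells, with p 0.0667 to 0.1. Differences near 0 turned in sign without single libraries for Gapdh in bulk tumors (-0.28 to 0.0571, above 0 without GL261 replicate 405) and in neurosphere-derived tumors for Pkm (-0.236 to 0.0334, above 0 without GL261 replicate 89) and Hif1a (-0.176 to 0.0587, above 0 without GL261 replicate 91 or CT2A replicate 57, 60 or 61). Hif1a was also at 0.0222 without a minimum count and with TMM over all genes with reads. The cause of these changes was not tested. Over 132 differences of single members, 1817 values kept direction and side of the threshold, 160 no longer passed, 13 newly passed and 8 changed sign. With 6 groups in 1 fit the interaction between sorted cells and bulk tumors gave 992 higher and 1344 lower genes, with a median shift of -0.17. Adm rests on few reads in selected CT2A cells, with 1 to 13 estimated reads a library.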
